A study of Mus musculus with 4 samples.

Results

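The guanylate-binding proteins (GBP) and the immunity-related GTPases (IRG) were examined in single stromal cells of adult mouse gut. The set was chosen by name and holds 10 genes, 6 GBP genes (Gbp2, Gbp3, Gbp4, Gbp6, Gbp7 and Gbp9) and 4 IRG genes (Iigp1, Igtp, Irgm1 and Irgm2). They take up 11 of the 28692 gene rows, because the symbol Gbp6 stands on 2 rows, of which 1 held 0 UMIs in every library. All mice were untreated females of strain C57BL6/Nrj, 8 to 10 weeks old, and mesenchymal stromal cells (MSC) were sorted from the lamina propria of small intestine (2 libraries) and of colon (2 libraries) after the muscle layer had been taken off. The sort kept live cells that carried integrin β1 and lacked CD45, Ter119, CD31, BP3, EpCAM and L1CAM. The labels speak of 2 independent experiments with 3 mice each and do not say which mice gave which library, so the spread between replicates may be technical in part. The question put to the data was whether the GTPase level of small intestinal fibroblasts (FB) is spread over the cells or comes from a few interferon-high cells.

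GBP and IRG proteins are interferon-induced GTPases of cell-autonomous immunity. They are strongly induced by interferon-γ, and to differing degrees by type I interferons. Effector members gather on the vacuoles of intracellular parasites and bacteria and help to break them open, while the Irgm proteins regulate the effector IRG proteins and are found on the membranes of the cell's own organelles. In the gut, interferon-γ comes mainly from T cells, NK cells and innate lymphoid cells of the mucosa.

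The genes are protein coding and lie mostly in clusters (GENCODE vM21, GRCm38). On the + strand of chromosome 3 follow Gbp7 (chr3:142530342-142550149), Gbp3 (chr3:142560026-142573209) and Gbp2 (chr3:142620602-142638008). On the - strand of chromosome 5 lie Gbp9 (chr5:105077630-105139539), Gbp4 (chr5:105115767-105139586) and Gbp6 (chr5:105270702-105293698). Chromosome 11 holds Irgm1 (chr11:48861968-48871683, - strand), Igtp (chr11:58199556-58207591, + strand) and Irgm2 (chr11:58199618-58222782, + strand), and Iigp1 lies on another chromosome. Gene models of neighbours overlap on the same strand for Gbp4 and Gbp9 (also with Gbp8), for both Gbp6 rows (1 of which also overlaps Gbp10) and for Igtp and Irgm2. Reads shared by such genes may have been split or dropped in counting, so the levels of these 5 genes are less certain.

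Start regions were at hand from RefSeq (GRCm38.p6) for 6 of the 10 genes, as 7 windows of 300 bases (250 before and 50 after the start). They were searched on both strands for a core of the interferon-stimulated response element, to which IRF factors bind (ISRE, GAAANNGAA), and for the γ-activated site (GAS, TTCNNNGAA). The ISRE core was found in 6 of the 7 windows and in 8.56% of all 32851 windows of the table, and the GAS in 3 of 7 against 8.30%. Windows with both made up 3 of 7 (Gbp7, Igtp and Irgm2) and 1.07% of all. A match is a run of letters and not a shown binding site. The windows of Igtp and Irgm2 are printed because they are nearly alike around both motifs, which start at -45 (GAS) and -34 (ISRE) from the start of Igtp and at -75 and -64 from that of Irgm2, and because they share a run of 61 bases; the window of Irgm2 lies inside its GENCODE gene model. That of Irgm1 holds overlapping ISRE cores, and that of Gbp2 shows the core on the reverse strand. Capitals mark the motifs, and GAS and ISRE matches overlapped in none of the windows.
Igtp (chr11:58199306-58199605, + strand): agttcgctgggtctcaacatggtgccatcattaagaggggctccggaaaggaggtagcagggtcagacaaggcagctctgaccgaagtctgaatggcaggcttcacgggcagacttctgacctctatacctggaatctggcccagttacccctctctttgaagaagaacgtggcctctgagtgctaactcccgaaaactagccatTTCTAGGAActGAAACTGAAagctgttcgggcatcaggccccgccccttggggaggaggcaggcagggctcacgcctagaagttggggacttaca
Irgm2 (chr11:58214727-58215026, + strand): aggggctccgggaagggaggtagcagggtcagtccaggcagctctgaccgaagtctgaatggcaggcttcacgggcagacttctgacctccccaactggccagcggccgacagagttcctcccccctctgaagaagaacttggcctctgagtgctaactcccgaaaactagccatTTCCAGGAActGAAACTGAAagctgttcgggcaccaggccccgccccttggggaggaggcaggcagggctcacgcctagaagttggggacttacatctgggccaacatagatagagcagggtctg
Irgm1 (chr11:48871371-48871670, - strand): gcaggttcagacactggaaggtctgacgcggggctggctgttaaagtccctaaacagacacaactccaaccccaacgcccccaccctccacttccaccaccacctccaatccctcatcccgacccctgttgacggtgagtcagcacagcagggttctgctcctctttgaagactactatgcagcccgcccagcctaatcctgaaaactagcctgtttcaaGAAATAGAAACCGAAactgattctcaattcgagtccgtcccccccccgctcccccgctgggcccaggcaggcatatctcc
Gbp2 (chr3:142620413-142620712, + strand): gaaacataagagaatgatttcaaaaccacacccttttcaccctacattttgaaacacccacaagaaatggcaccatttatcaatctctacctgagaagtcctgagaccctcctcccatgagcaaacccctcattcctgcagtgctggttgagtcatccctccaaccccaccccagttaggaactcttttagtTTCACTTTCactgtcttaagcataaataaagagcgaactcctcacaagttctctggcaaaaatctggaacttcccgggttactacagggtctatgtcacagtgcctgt

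Libraries of replicate 1 were small (1828 and 2399 cells after filters in small intestine and colon) and deep (medians of 6965 and 8810 UMIs per cell), and those of replicate 2 were large (14350 and 12108 cells) and shallow (2734.5 and 3878). Replicate 1 libraries also held more endothelial cells (19.7% and 10% of cells, against 0.0139% and 0.198%). Libraries with the same number shared 8 and 69 cell barcodes, and other pairs shared 0 to 2. FB were gated by markers, which include no gene of the set, into PDGFRα-high FB (165, 1188, 609 and 2762 cells in small intestine 1 and 2 and colon 1 and 2), CD81+ FB (455, 3150, 413 and 2211) and remaining FB (592, 9706, 730 and 6064). Levels of markers that the gate used differ between classes by construction and do not test these names. Of these, Pdgfra stood at 718 to 2154 counts per 1000000 UMIs (CPM) in PDGFRα-high FB and at 154 to 236.5 CPM in the other FB. Grem1 stood at 765 to 1183 CPM in CD81+ FB and at 78.2 to 227 CPM in remaining FB. The CD81 score had no gap, and 9.37% to 16.5% of FB lay within 0.1 of its cut. Smooth muscle cells (SMC) numbered 55, 139, 268 and 815.

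Small intestinal FB carried more GTPase UMIs than colonic FB. The summed level of the 10 genes in all FB was 889.5 and 868.9 CPM in small intestine versus 315.5 and 381.0 CPM in colon, so that the intestines did not overlap. Means were 879 ± 14.5 (SD, n = 2) and 348 ± 46.3 CPM (SD, n = 2), and the ratio was 2.82 between the replicate 1 libraries and 2.28 between the replicate 2 libraries, which were also counted with different Cell Ranger versions. For 9 of the 10 genes, both small intestinal libraries lay above both colonic ones, against 15.6% of all 13393 genes with at least 50 UMIs. Gbp6 was the exception.

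Among the IRG genes, Iigp1 (Irga6, an effector that coats parasite vacuoles) stood at 357.5 and 358.1 CPM in small intestinal FB versus 68.2 and 147.2 CPM in colonic FB. The small intestinal libraries were nearly equal and the colonic ones differed from each other. Igtp (Irgm3), a regulatory IRG gene, was at 83.7 and 61.6 CPM in small intestine versus 28.1 and 20.8 CPM in colon. Its ratio was 2.98 and 2.96 in the same-numbered libraries, the most even of the set. Irgm2, also regulatory, was at 49.1 and 41.0 CPM against 19.96 and 13.1 CPM. Irgm1, which also serves autophagy, was at 103.5 and 66.2 CPM against 39.1 and 51.5 CPM, with ratios of 2.65 and 1.29.

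Among the GBP genes, Gbp2 was at 142 and 134.5 CPM in small intestinal FB versus 79.2 and 56.3 CPM in colonic FB. Gbp7 was at 71.8 and 100.9 CPM against 37.7 and 45.3 CPM. Both are GBP proteins of vacuole attack and were higher in both small intestinal libraries. Gbp3 was at 43.8 and 49.1 CPM against 24.3 and 21.9 CPM. Gbp4 was at 13.3 and 13.7 CPM against 7.09 and 4.08 CPM, and Gbp9 at 11.5 and 14.3 CPM against 7.03 and 5.30 CPM. These 3 genes showed the same order of intestines. Gbp6 was at 13.4 and 29.4 CPM in small intestine versus 4.89 and 15.5 CPM in colon, so that colon replicate 2 lay above small intestine replicate 1, while the ratio within same-numbered libraries was 2.74 and 1.90.

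In the quasi-likelihood test of edgeR on summed counts (Benjamini-Hochberg over all 13911 genes tested), 0 of the 10 genes passed an adjusted p of 0.05 in all FB, as did 0.410% of all genes. Log2 fold changes of small intestine over colon ran from 0.96 (Irgm1) to 1.77 (Iigp1), all above 0, with a median of 1.14 where the median of all genes was 0.00 and with adjusted p of 0.106 to 0.732. At an unadjusted p under 0.05, 9 of the 10 genes (all but Gbp6) and 11.6% of all genes passed. DESeq2 called 7 of the 10 (Gbp2, Gbp3, Gbp4, Gbp7, Iigp1, Igtp and Irgm2), all higher in small intestine, and 5.24% of all genes.

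**Figure D1:**
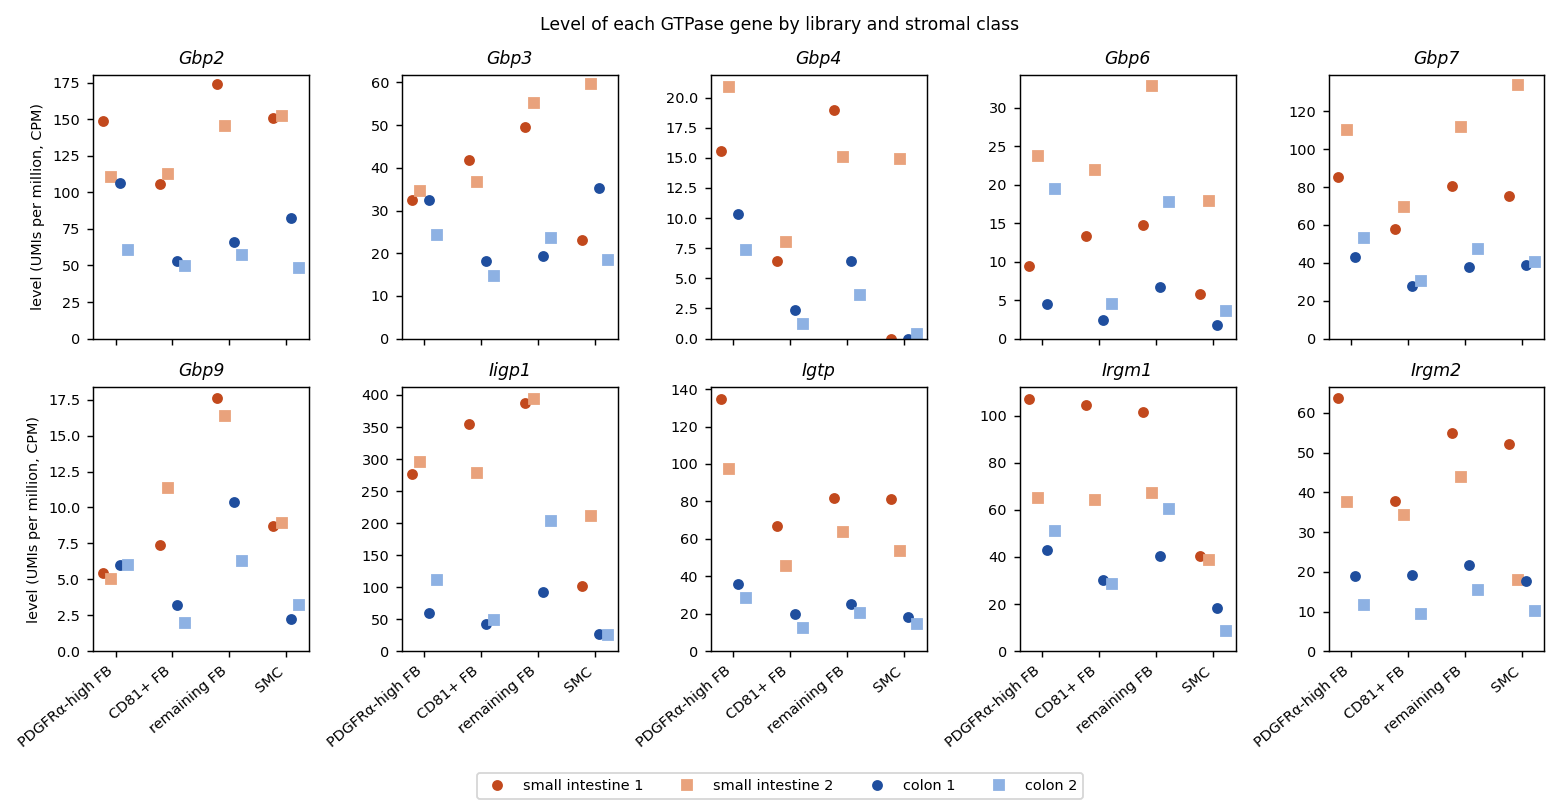
Level of each of the 10 GTPase genes (y axes, counts per 1000000 UMIs, from 0) in PDGFRα-high FB, CD81+ FB, remaining FB and SMC, with 1 point per library (circles replicate 1, squares replicate 2). In CD81+ FB both small intestinal points lie above both colonic points for all 10 genes, and in PDGFRα-high FB Gbp9 stands at 5.04 to 5.99 CPM in all 4 libraries.

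The intestines were then compared within each class. In CD81+ FB, which lie deep in the mucosa and submucosa around crypts and vessels, the summed level was 797 and 682 CPM in small intestine versus 219 and 201 CPM in colon, with same-numbered ratios of 3.64 and 3.39. All 10 genes lay higher in both small intestinal libraries (background 11.7%). Iigp1 had the widest gap, at 355 and 279 CPM against 43.1 and 48.1 CPM, a log2 fold change of 2.93 ± 0.31 (SE). Log2 fold changes of the others ran from 1.23 to 2.41. By edgeR 0 of 10 passed at an adjusted p of 0.05 (0.0661 to 0.334), as did 0% of all 11789 genes, while 10 of 10 and 8.21% of all genes had an unadjusted p under 0.05, and DESeq2 called 7 of 10 and 2.21%.

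In PDGFRα-high FB, the subepithelial FB, the summed level was 880.0 and 800.4 CPM in small intestine versus 360.1 and 371.9 CPM in colon. Differences were uneven over the genes here, and 8 of 10 (all but Gbp6 and Gbp9) had both small intestinal libraries on top, where 24.9% of all genes did. Igtp was at 134.9 and 97.2 CPM against 35.7 and 28.2 CPM (log2 1.72 ± 0.29 SE). Irgm2 was at 63.7 and 37.4 CPM against 18.9 and 11.6 CPM, and Iigp1 at 277 and 296 CPM against 59.6 and 110.7 CPM. For these 3 IRG genes the lower small intestinal library was above the higher colonic one by a wide margin. Gbp3 was at 32.5 and 34.5 CPM against 32.5 and 24.2 CPM, and Gbp9 at 5.42 and 5.04 CPM against 5.99 and 5.97 CPM, on 8 and 14 UMIs in small intestine. For these genes PDGFRα-high FB of the intestines lay close together, with a log2 fold change of 0.11 ± 0.27 for Gbp3 and of -0.34 ± 0.39 for Gbp9. By edgeR 0 of 10 passed (adjusted p 0.0713 to 0.984) and 1.55% of all genes did, 5 of 10 and 12.9% had an unadjusted p under 0.05, and DESeq2 called 3 of 10 (Igtp, Iigp1 and Irgm2) and 5.52%.

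In remaining FB, which hold the FB with Fgfr2, Igfbp5 or Thy1, the summed level was 981.7 and 944.7 CPM in small intestine versus 325.7 and 454.5 CPM in colon. The make-up of this class differed between the intestines. Thy1 stood at 1.90 and 1.53 CPM in small intestine versus 140.2 and 84.6 CPM in colon, and Igfbp5 at 656 and 745 CPM versus 435 and 446 CPM. Without thinning, 59.8%, 30.5%, 58.5% and 22.2% of its cells had an Fgfr2 UMI in small intestine 1 and 2 and colon 1 and 2. Such a share rises with depth, and median UMIs per cell of the class were 7395, 2705, 8885 and 3931.5. The part of this make-up in the GTPase levels was not tested. Gbp2 was at 174 and 145 CPM against 66.2 and 56.9 CPM, and Gbp4 at 19.0 and 15.1 CPM against 6.46 and 3.59 CPM. By the summed level colon replicate 2 came closest to small intestine, with Iigp1 at 203 CPM and Irgm1 at 60.4 CPM, where small intestine replicate 2 had 394 and 67.1 CPM. For Gbp2, Gbp4, Gbp9, Igtp and Irgm2, colon replicate 1 was the higher colonic library. Of the 10 genes, 9 had both small intestinal libraries on top (background 17.8%). By edgeR 0 of 10 passed (adjusted p 0.0966 to 0.794) and 0.308% of all genes did, 8 of 10 and 9.85% had an unadjusted p under 0.05, and DESeq2 called 6 of 10 and 3.60%.

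SMC, the contractile cells of the mucosal muscle, had summed levels of 538.3 and 709.4 CPM in small intestine versus 241.6 and 173.0 CPM in colon. The small intestinal values rest on 186 and 238 UMIs in all. Iigp1 was at 101 and 212 CPM against 26.7 and 26.0 CPM (log2 2.54 ± 0.43 SE). Gbp4 was near absent, with 0 and 5 UMIs in small intestine versus 0 and 1 in colon. For 8 of 10 genes both small intestinal libraries were on top. Of the 7 genes with at least 50 UMIs in SMC it was 6, where 16.5% of all genes with as many UMIs were so placed. Of 8 genes with enough counts, edgeR called 0 (adjusted p 0.0859 to 0.926) and 0.328% of all genes, 5 and 7.75% had an unadjusted p under 0.05, and DESeq2 called 1 (Iigp1) and 1.32%.

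**Figure D2:**
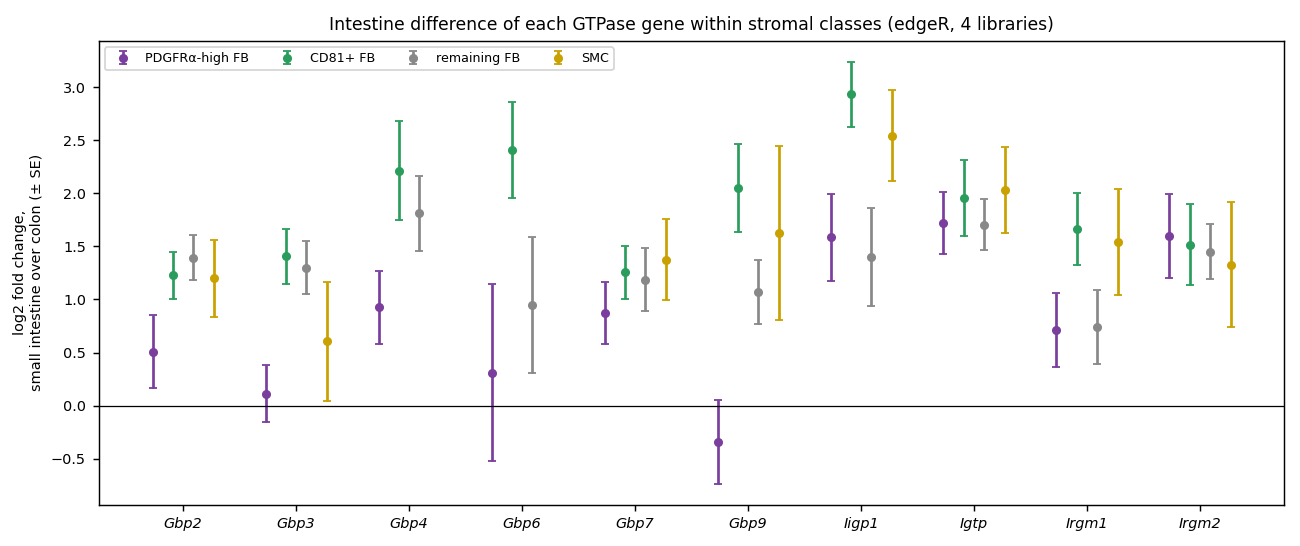
Log2 fold change of small intestine over colon (y axis, edgeR on summed counts of 4 libraries, bars ± SE) of each GTPase gene in PDGFRα-high FB, CD81+ FB, remaining FB and SMC. Points of CD81+ FB run from 1.23 to 2.93, those of PDGFRα-high FB from -0.34 to 1.72, and Gbp4 and Gbp6 had too few counts in SMC.

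Whether the difference between the intestines itself differed between FB classes was tested as a class by intestine term with library as a block. The gap was smaller in PDGFRα-high FB than in CD81+ FB for 5 of the 10 genes, Gbp9 (by -2.50 ± 0.47 on the log2 scale, SE), Gbp6 (-2.17 ± 0.36), Iigp1 (-1.29 ± 0.32), Gbp3 (-1.26 ± 0.26) and Irgm1 (-0.96 ± 0.19), at adjusted p of 0.000873 to 0.0419 in edgeR, where 12.3% of all genes passed in either direction. It was also smaller in PDGFRα-high FB than in remaining FB for Gbp9 (-1.49 ± 0.40), Gbp3 (-1.14 ± 0.24) and Gbp2 (-0.86 ± 0.22), 3 of 10 against 8.80% of all genes. It was larger in CD81+ FB than in remaining FB for Gbp6 (1.54 ± 0.32) and Irgm1 (0.91 ± 0.18), 2 of 10 against 1.29%. Gbp4, Gbp7, Igtp and Irgm2 passed in none of these 3 tests. For Igtp and Irgm2, the gap in PDGFRα-high FB minus that in CD81+ FB was -0.24 ± 0.18 and -0.02 ± 0.24. With a library left out, 1 library of that intestine is kept, so counts of genes called are not given. Without either small intestinal library, fewer of the 10 genes and a smaller share of all genes passed in each comparison. Without colon replicate 2, fewer of the 10 genes passed in the comparisons with remaining FB, and the share of all genes fell. Without colon replicate 1 the share of all genes rose.

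Classes were also compared with each other over both intestines. Igtp was higher in PDGFRα-high FB than in CD81+ FB (log2 0.73 ± 0.09 SE, adjusted p = 0.000142, edgeR) and than in remaining FB (0.39 ± 0.09, adjusted p = 0.00703, edgeR), and PDGFRα-high FB led in all 4 libraries. Gbp4 (1.48 ± 0.27) and Gbp7 (0.38 ± 0.10) were also higher in PDGFRα-high than in CD81+ FB, so that 3 of 10 genes passed, where 41.0% of all genes did. Against remaining FB, PDGFRα-high FB had more Igtp and less Irgm2 (-0.34 ± 0.11), 2 of 10 against 31.1% of all genes. In small intestine replicate 1 Irgm2 went the other way, at 63.7 CPM in PDGFRα-high FB and 54.9 CPM in remaining FB. CD81+ FB had less Gbp4 (-1.11 ± 0.26), Gbp7 (-0.45 ± 0.09) and Igtp (-0.34 ± 0.09) than remaining FB, 3 of 10 against 7.06%. The counts in CD81+ against remaining FB fell to 1 gene without small intestine replicate 1 (4.13% of all genes). They fell to 0 genes without small intestine replicate 2, colon replicate 1 or colon replicate 2 (2.78%, 3.87% and 3.74%). In PDGFRα-high against remaining FB they were 1 without small intestine replicate 2 or colon replicate 1 (20.7% and 20.9%) and 3 without colon replicate 2 (25.4%). Gbp7 was lost in PDGFRα-high against CD81+ FB without either colon library.

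To see how the UMIs fell on cells, each FB was thinned to 2000 UMIs, and shallower FB were left out (74, 3182, 60 and 1206 cells in small intestine 1 and 2 and colon 1 and 2). A UMI of at least 1 of the 10 genes was then found in 66.0% (95% exact binomial interval 63.2% to 68.7%) and 66.6% (65.7% to 67.5%) of small intestinal FB and in 34.0% (31.8% to 36.4%) and 40.01% (39.0% to 41.0%) of colonic FB. The intestines did not overlap, and the difference of means was 29.3 percentage points with an SD between replicates of 3 points. An exact permutation test over the 4 libraries (two-sided) gave p = 0.333, the smallest these libraries allow. Without thinning the shares were 89.5%, 73.6%, 75.5% and 55.5%, at the unequal depths given above. Intervals cover counting error only. The classes read here (FB, SMC, pericytes and endothelial cells) all carried these genes, so no share in cells that lack them can be set beside these values. In SMC the thinned shares were 55.1%, 55.7%, 34.0% and 30.3%.

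The share was raised in each FB class. In PDGFRα-high FB it was 69.8% and 69.2% in small intestine versus 38.0% and 42.5% in colon, in CD81+ FB 63.3% and 58.1% against 27.2% and 26.8%, and in remaining FB 67.1% and 69.5% against 34.5% and 43.6%. In none of the 3 classes did the intestines overlap. By gene, Iigp1 was found in 37.0% and 35.8% of small intestinal versus 8.27% and 15.2% of colonic FB, and Gbp2 in 17.2% and 19.3% against 10.99% and 10.01%. Igtp was found in 15.03% and 9.91% against 4.55% and 3.94%. Gbp4 was found in 2.37% and 2.33% against 1.06% and 0.814% of FB. In small intestine replicate 1 Gbp6 was found in 2.20% of FB, close to Gbp4 (25 and 27 cells).

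Small intestinal FB also carried more of the genes per cell. UMIs of 3 or more of the 10 genes were seen in 14.5% and 12.9% of small intestinal versus 2.78% and 3.41% of colonic FB. Mean UMIs of the set per thinned FB were 1.80 and 1.72 in small intestine versus 0.588 and 0.765 in colon. The 10% of FB with the most such UMIs held 39.7% and 40.6% of them in small intestine versus 57.8% and 52.4% in colon, so that the UMIs were less concentrated in small intestine (difference -15 percentage points, SD 2.73, exact permutation p = 0.333, the smallest possible). A share of this kind falls as the mean rises, and counts also varied more than single UMIs drawn evenly would, with a variance over mean of 2.59 to 3.25. Without those 10% of cells, the summed level was 605 and 566 CPM in small intestine versus 138 and 202 CPM in colon, a description only, since these cells were taken out by the measured value itself.

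**Figure D3:**
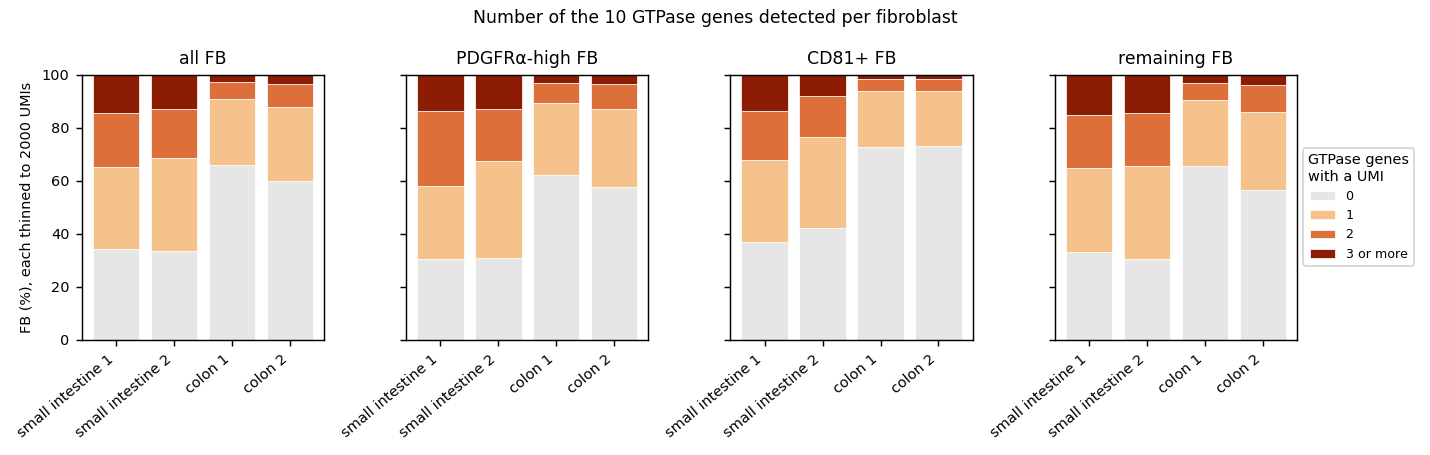
Share of FB (y axis, percent, each cell thinned to 2000 UMIs) with UMIs of 0, 1, 2 or 3 and more of the 10 GTPase genes, by library, for all FB and the 3 FB classes. The grey part (0 genes) is 34.0% and 33.4% in small intestinal FB and 66.0% and 60.0% in colonic FB.

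Interferon-high FB were defined in each library as the 5% of FB with the most UMIs of a type I interferon list, which holds no gene of the set. They held 7.46% and 8.30% of the GTPase UMIs in small intestine versus 10.95% and 8.26% in colon. Their GTPase level was above that of the other FB in each library, at 1342 and 1424 CPM in small intestine versus 641 and 631 CPM in colon. Leaving them out moved the summed level only from 902 to 878 and from 858 to 828 CPM in small intestine, and from 294 to 276 and from 383 to 369 CPM in colon. On the log2 scale small intestine then stood 1.42 above colon (SD between replicates 0.22, exact permutation p = 0.333, the smallest possible), and 1.39 with all FB. In edgeR without these cells, log2 fold changes were 1.00 to 1.81, 0 of 10 genes passed (adjusted p 0.114 to 0.722) and 0.371% of all genes did, and 9 of 10 and 11.8% had an unadjusted p under 0.05.

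Ifi27l2a alone gave 69.7% to 76.2% of the UMIs of this list, and Bst2 another 6.68% to 8.10%, so the list was also read without both genes, a choice made after seeing the data. The top 5% by the shorter list, in which Isg15, Ifit and Oas genes count, held 9.60% and 11.5% of GTPase UMIs in small intestine versus 19.7% and 14.2% in colon, and the other FB stood at 858 and 799 CPM against 249 and 346 CPM. With the interferon-γ list, which holds MHC, antigen-processing and Cxcl9 and Cxcl10 genes, the top 5% held 9.89% and 12.4% in small intestine versus 17.9% and 16.9% in colon, and the other FB stood at 855 and 791 CPM against 254 and 335 CPM. Under each of these definitions the other FB of both small intestinal libraries lay above those of both colonic ones. The cut is a rank within each library, so these FB were not matched for interferon genes between the intestines. They held the full type I list at 4193 and 2978 CPM in small intestine versus 2242 and 1468 CPM in colon. The interferon-γ list stood at 14240 and 10590 CPM versus 5352 and 4169 CPM.

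At the other end, FB with 0 UMIs of the type I list were few, 1.58% and 2.38% of small intestinal and 10.2% and 14.8% of colonic FB. Their GTPase level was 556 and 612 CPM in small intestine, on 18 and 259 cells, and 188 and 243 CPM in colon. With 0 UMIs of the list less Ifi27l2a and Bst2 (29.9%, 39.8%, 49.5% and 55.4% of FB), the level was 663 and 645 CPM in small intestine versus 191 and 276 CPM in colon. The GTPase level was thus lower in FB without such UMIs within each library, and the gap between the intestines was also seen among them. At 2000 UMIs a count of 0 does not show that a cell lacks the transcripts.

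**Figure D4:**
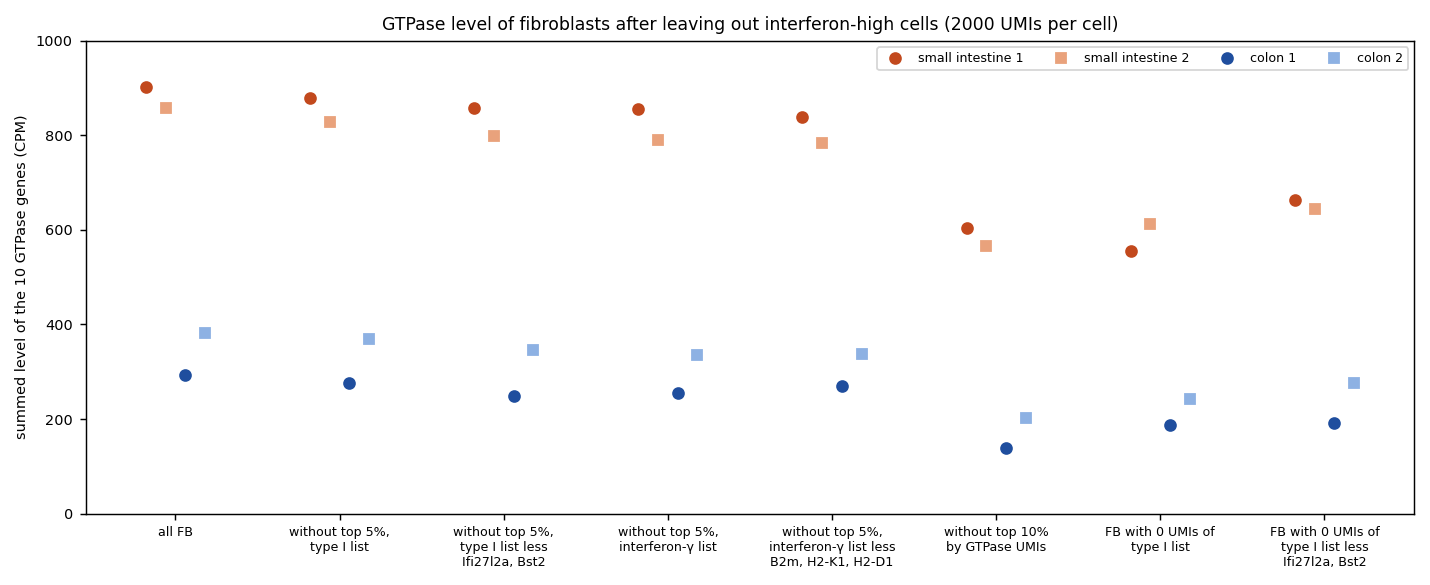
Summed level of the 10 GTPase genes (y axis, CPM, cells thinned to 2000 UMIs) in all FB of each library, after leaving out the top 5% of FB by each interferon list or the top 10% by GTPase UMIs, and in FB with 0 UMIs of the type I lists. Both small intestinal points lie above both colonic points in all 8 columns, from 556 to 902 CPM against 138 to 383 CPM.

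Other cells of the sort carried these genes too. Endothelial cells stood at 1937 CPM in small intestine replicate 1 (361 cells) and at 1402 and 3138 CPM in colon (240 and 24 cells), above the FB of the same library, while small intestine replicate 2 held 2. Pericytes, the mural cells of small vessels, stood at 1805 and 1364 CPM in small intestine (58 and 50 cells) and at 747 and 1060 CPM in colon (79 and 61 cells), also above FB, with Iigp1 at 335.5 to 999.6 CPM. Within FB, which were gated for low endothelial and immune scores, the markers were low by construction: summed over 8 endothelial markers 2.26 to 3.99 CPM, over 10 immune markers 14.9 and 29.2 CPM in small intestine against 11.1 and 22.9 CPM in colon, with Ptprc at 0 to 0.228 CPM, Cd3e at 0 to 0.0596 CPM and Pecam1 at 0.119 to 0.699 CPM. Of the endothelial markers 0 to 2 and of the immune markers 0 to 2 had no UMI in FB of a library (Cldn5 in 3 libraries, Tie1 and Ptprc in small intestine replicate 1, and Cd3e in 2 libraries). Small intestine replicate 1, which held the most endothelial cells, had the lowest endothelial marker sum in FB, a sum that the gate itself limits. The part of endothelial RNA in the GTPase levels was not tested. Immunoglobulin UMIs (Igkc, Igha and Jchain), which FB do not make, summed to 44.5 and 57.4 CPM in small intestinal FB versus 24.8 and 49.7 CPM in colonic FB, and the part of such free RNA in the GTPase levels was not tested. Of the 6 pericyte markers Rgs5 was at 635 and 637 CPM in small intestinal and at 28.8 and 26.3 CPM in colonic FB, while the other 5 summed to 36.8 and 65.7 CPM against 21.03 and 32.8 CPM, with Higd1b at 0.0507 to 0.206 CPM. The part of pericyte RNA in the GTPase levels was not tested.

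Genes of the interferon pathway were read from lists. Of the ligands, Ifng had 2 UMIs in FB of each small intestinal library and 0 in colon, and Ifnb1, Ifna4, Ifnl2, Ifnl3 and Ifnk had 0 in FB of all 4. Of 5 receptor genes tested (median log2 fold change 0.20), edgeR called 0 (0.410% of all genes). Of these, 0 had an unadjusted p under 0.05 (11.6%), and DESeq2 called 0 (5.24%). Ifnar2 was at 221.5 and 150 CPM in small intestine versus 170 and 123 CPM in colon, and Ifnar1 at 32.3 and 36.9 CPM against 35.8 and 27.96 CPM. Il10rb, a chain of the interferon-λ receptor, and Ifngr2, a chain of the interferon-γ receptor, had log2 fold changes of 0.50 ± 0.20 and 0.19 ± 0.21 (SE).

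Of 14 signal transducers and regulators edgeR called 0 (0.410% of all genes), 3 had an unadjusted p under 0.05 (11.6%), and DESeq2 called 2 (5.24%). Socs3, a feedback inhibitor of cytokine signalling, was lower in both small intestinal libraries, at 1068 and 1002 CPM against 2348 and 2051 CPM (log2 -1.01 ± 0.24 SE). Jak2, a kinase of the interferon-γ receptor, was at 24.8 and 23.3 CPM against 15.4 and 17.1 CPM, and Ptpn2, a phosphatase that acts on JAK kinases, at 31.9 and 42.5 CPM against 51.4 and 71.7 CPM. For each of these 3 genes the intestines did not overlap. They were named for large fold changes within their list, which favours this. No share of all genes was computed for those lower in small intestine.

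Of 13 other GBP and IRG genes tested, 11 were higher in small intestine (median log2 fold change 1.43, all genes 0.00). In this list edgeR called 0 (0.410% of all genes), 6 had an unadjusted p under 0.05 (11.6%), and DESeq2 called 6 (5.24%). Gbp5, which takes part in inflammasome activation, was at 27.1 and 44.3 CPM against 10.96 and 15.7 CPM. Gbp8 was at 16.9 and 20.4 CPM against 7.69 and 6.27 CPM, Gm4951 at 21.2 and 41.1 CPM against 6.85 and 12.3 CPM, and Gm4070 at 7.61 and 3.98 CPM against 0.774 and 0.248 CPM. All 4 lay higher in both small intestinal libraries, as did 15.6% of all genes with at least 50 UMIs. These 4 were named for large fold changes within their list, which favours this.

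Of 26 type I genes tested, 23 were higher in small intestine (median 0.69). In this list edgeR called 0 (0.410% of all genes), 11 had an unadjusted p under 0.05 (11.6%), and DESeq2 called 7 (5.24%). Isg15, a ubiquitin-like protein, was at 264.8 and 52.2 CPM against 59.2 and 28.4 CPM, so that replicate 2 of small intestine lay below replicate 1 of colon. Oas1a, a sensor of double-stranded RNA, was at 21.3 and 6.13 CPM against 4.23 and 1.06 CPM, and Slfn5 at 29.0 and 53.2 CPM against 8.28 and 12.6 CPM. Slfn8 was at 12.2 and 15.7 CPM against 3.81 and 5.32 CPM. Of 20 interferon-γ genes tested, 19 were higher in small intestine (median 0.99). Here edgeR called 0 (0.410% of all genes), and 11 had an unadjusted p under 0.05 (11.6%). DESeq2 called 10 (5.24%), of which 9 were higher in small intestine. Nlrc5, the transactivator of MHC class I genes, was at 7.09 and 5.14 CPM against 0.298 and 0.293 CPM (log2 4.40 ± 0.41 SE, adjusted p = 0.0501 in edgeR). H2-K1, an MHC class I chain, was at 2673 and 2194 CPM against 556 and 503 CPM, B2m, its light chain, at 2399 and 1833 CPM against 536.5 and 525 CPM, and Cxcl9, a T cell chemokine, at 89.4 and 92.7 CPM against 13.1 and 31.6 CPM.

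The genes outside the set whose levels followed it most closely were sought over 16 profiles (3 FB classes and SMC in 4 libraries) among 13901 genes, by Pearson's r of log2(CPM + 10) with the mean of the 10 genes. The first 8 were H2-Q7 (r = 0.969), Tap1 (0.965), H2-Q6 (0.957), H2-K1 (0.935), Psmb8 (0.931), B2m (0.928), Lrat (0.922) and Psmb9 (0.918). Of these, H2-Q7, H2-Q6, H2-K1 and B2m code for MHC class I chains, Tap1 for a peptide transporter and Psmb8 and Psmb9 for subunits of the immunoproteasome. Lrat, which makes retinyl esters for vitamin A storage, is no interferon gene and was at 249.7 CPM or more in small intestinal FB and at 1.79 CPM or less in colonic FB. For the members themselves r ran from 0.751 (Gbp9) to 0.948 (Iigp1), each being part of the mean. Profiles of 1 library share its depth, and the intestines differ in many genes, so r is a description only.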

How the data were processed

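The authors made droplet libraries of sorted MSC with a 3′ or a 5′ kit (which library had which is not stated). Reads were aligned to mm10, and UMIs were counted with Cell Ranger 3.0.2 (replicate 1) or 3.1.0 (replicate 2), per the file headers. The authors deposited raw counts of UMIs per gene and barcode (14341443 to 52269372 in a library), so that a level under about 1 CPM rests on few UMIs.

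Barcodes needed 500 genes, 1000 UMIs and no more than 10% of mitochondrial UMIs, and doublets that scrublet marked (scanpy 1.11.5, Python 3.11.15) were removed (6, 913, 32 and 580). Classes were gated on mean log-normalised marker scores and may differ from the cell groups of the study. Counts summed over a class were tested with edgeR 4.0.16 (filterByExpr, TMM, robust quasi-likelihood, Benjamini-Hochberg) in R 4.3.3, and the scripts were tested on simulated data. Of 200 genes simulated with a log2 change of 2, edgeR called 53.5% in all FB and 67.5% in PDGFRα-high FB. In CD81+ FB, remaining FB and SMC it called 68.5%, 54.5% and 31.5%. Median log2 changes of the tested genes of the set were smaller, at 1.14, 0.79, 1.81, 1.35 and 1.46 in these classes in the order named. The simulated shares thus do not give the power at such changes. Alternatives were DESeq2 1.42.0, no filter on low counts, a replicate block, other gates and cell filters, and each library left out.

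The genes of the set, the lists, the markers and the tests were chosen with earlier results of these data known. All 10 genes are named, with up to 4 genes of each list that had the largest fold change in all FB and 50 UMIs or more per library of the higher intestine, and the 8 genes most like the set. Of the lists, Gbp11, Gm12250, Mx2 and Cxcl11 matched no row. A gene that this rule names is not reported here. Cells outside FB, SMC, pericytes and endothelial cells were left out.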

Additional observations from a re-analysis of the deposited data

Results flagged for a closer look

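The difference between small intestine and colon was not the same in all FB classes for 6 of the 10 genes, by edgeR's class by intestine term. In PDGFRα-high FB minus CD81+ FB it was -2.50 (Gbp9), -2.17 (Gbp6), -1.29 (Iigp1), -1.26 (Gbp3) and -0.96 (Irgm1) on the log2 scale. In PDGFRα-high FB minus remaining FB it was -1.49 (Gbp9), -1.14 (Gbp3) and -0.86 (Gbp2). In CD81+ FB minus remaining FB it was 1.54 (Gbp6) and 0.91 (Irgm1). Adjusted p ran from 0.000873 to 0.0419 (edgeR). The 5, 3 and 2 genes of these comparisons stand beside 12.3%, 8.80% and 1.29% of all genes. Fewer genes of the set, and a smaller share of all genes, passed without small intestine replicate 1, and likewise without small intestine replicate 2. Those fits kept 1 small intestinal library.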

How the results depend on the processing

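With 2 libraries per intestine, counts of called genes depended on the test more than the direction did. In all FB, PDGFRα-high FB, CD81+ FB, remaining FB and SMC, edgeR called 0 genes of the set. DESeq2 called 7, 3, 7, 6 and 1 of them (5.24%, 5.52%, 2.21%, 3.60% and 1.32% of all genes). Without the filter on low counts, edgeR called 1, 3, 6, 4 and 2 (1.55%, 4.37%, 1.47%, 1.65% and 1.11% of all genes). The replicate number as a replicate block gave 8, 7, 10, 8 and 5 genes (17.6%, 24.2%, 7.02%, 14.7% and 5.23% of all genes). Deviations of same-numbered libraries correlated at r = 0.796 over 13911 genes, but the labels do not say that a number is shared between intestines, and with 2 pairs the numbers were taken as names only. Fits with a library left out kept 1 library of that intestine, so genes called in them are not counted here.

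The direction turned in 5 cases, none of them called. In PDGFRα-high FB, Gbp6 was at -0.54 without small intestine replicate 2 and at -0.40 without colon replicate 1, and Gbp3 at -0.03 without colon replicate 2. In SMC, Gbp3 was at -0.23 without small intestine replicate 2 and at -0.03 with the stricter gate. Over the libraries left out, these ran from -0.54 to 1.84 (Gbp6), from -0.03 to 0.26 (Gbp3 in PDGFRα-high FB) and from -0.23 to 1.14 (Gbp3 in SMC). The cause was not tested.

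Leaving out a library gave 2 to 3 called genes in PDGFRα-high against CD81+ FB (30.8% to 34.1% of all genes). It gave 1 to 3 in PDGFRα-high against remaining FB (20.7% to 25.4%) and 0 to 1 in CD81+ against remaining FB (2.78% to 4.13%). The stricter gate gave 1 in PDGFRα-high against remaining FB (28.2%). For the difference of the intestine effect, such fits kept 1 library of an intestine and are not counted here. The stricter gate gave 0 for it in CD81+ against remaining FB (3.45%). No called class difference or class by intestine difference changed sign under DESeq2, the stricter gate or any library left out. The alternatives for the difference of the intestine effect were chosen after seeing the data.

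Thinning to 1000 UMIs gave a difference of 24.3 percentage points in the share of FB with a GTPase UMI, and leaving out a library 26.3 to 32.2. Small intestine stood 1.21 to 1.63 above colon on the log2 scale without interferon-high FB when each library was left out. It stood 1.81 above colon without the 10% of FB with the most GTPase UMIs, a choice made after seeing the data. These cells are chosen by the outcome and hold a larger share of the UMIs in colon, so that this value tests nothing about interferon-high FB.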
